A study of Mus musculus with 9 samples.

Results

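Genes of protein folding and early secretion in the endoplasmic reticulum (ER) were read in the whole uterus of pregnant mice on gestation day (GD) 3.5, ahead of embryo attachment. The list held 42 genes chosen by name for their role, and 41 of them, out of 18193 genes on the array, could be read at a probe set that names no other gene. The exception was Sec61g, the small subunit of the translocation channel, whose probe set also names other genes. Each gene was read at the probe set with its highest mean intensity over the 9 arrays.

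Uteri of 3 groups were compared, with 3 arrays each. The genotype Mig-6 d/d Erbb2 d/d (double knockout from here on) had Pgr cre/+ with floxed Mig-6 (f/f) and floxed Erbb2 (f/f). The genotype Mig-6 d/d had Pgr cre/+ with floxed Mig-6, so that Cre from the progesterone receptor locus removed the floxed alleles in cells that express this receptor and left them in the others. Control mice carried the floxed alleles of Mig-6, with or without those of Erbb2, and no Cre. The sources used here do not say which control array had which of these. Labels give an age of 2 weeks, whereas the methods describe adult mice. RNA of several mice was pooled by genotype. It is not stated if each array had its own pool, so the p-values measure the spread between arrays, which may be technical. Values are linear intensities after robust multi-array averaging, whose median per array was 7.87 to 8.24.

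Errfi1, the gene symbol of Mig-6, read 76.1, 29.8 and 40.3 in double knockout uteri, 15.1, 16.0 and 255 in Mig-6 d/d uteri and 454, 564 and 286 in control uteri. The third library labelled Mig-6 d/d therefore stood near control for the targeted gene, against its label. Erbb2 read 18.3, 9.88 and 18.5 in double knockout uteri, 46.6, 39.5 and 44.5 in Mig-6 d/d uteri and 29.4, 36.7 and 45.7 in control uteri, and the double knockout arrays did not overlap with the others. The position of these probe sets against the deleted exons was not known here. The tissue markers of the uterus, Pgr, Esr1, Hoxa10 and Hoxa11, summed to 3219 to 3478 in double knockout uteri, 2880.2 to 3613 in Mig-6 d/d uteri and 3737 to 4337 in control uteri. Both knockouts carry Cre in a Pgr allele and control does not, so Pgr is not a neutral marker in comparisons against control. Markers of acinar pancreas, another secretory tissue, summed to 37.6 to 54.2 in double knockout uteri, 34.5 to 37.2 in Mig-6 d/d uteri and 32.4 to 45.5 in control uteri over the measured genes. Because of the Errfi1 level in the third library labelled Mig-6 d/d, some values are also given without this library below. These are medians, counts of members and calls, and single members where the value changes most.

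Proteins that are secreted or placed in membranes enter the ER through a channel while they are being made. There a signal peptidase cuts off their leading peptide, chaperones and disulfide isomerases fold them, misfolded chains are sent back to the cytosol for degradation, and vesicles with a COPII coat carry the folded ones to the Golgi. When unfolded chains build up, the sensors encoded by Ern1, Eif2ak3 and Atf6 start the unfolded protein response, which raises transcription of chaperone genes through XBP1, ATF6 and ATF4. In the uterus before implantation the luminal and glandular epithelium secretes into the lumen, and the stroma secretes matrix.

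Of the 41 members, Creld2 rose in Mig-6 d/d uteri, and Creld2, Dnajc3 and Spcs3 fell in double knockout uteri relative to Mig-6 d/d, while the other 38 passed the test in no comparison. Members were called higher or lower where the adjusted p of limma (Benjamini-Hochberg, over 45037 probe sets) was under 0.05 and the change exceeded 1.5-fold. Between Mig-6 d/d and control, 1 of 41 members was called higher, Creld2, and 0 were called lower, where 2.55% and 1.81% of all 18193 genes were called. At an unadjusted p under 0.05, 15 members lay higher (36.6%) and 3 lower (7.32%), against 11.3% and 12.7% of all genes. In 15 of 41 members (36.6%) every Mig-6 d/d array lay above every control array, against 11.6% of all genes, and in 3 (7.32%) every Mig-6 d/d array lay below, against 14.1%. The members were bright probe sets. Of the 7447 genes at least as bright as the dimmest member, 286 were called higher and 245 lower. At an unadjusted p under 0.05, 17.8% of these bright genes lay higher and 17.8% lower. Without overlap of the arrays, 17.5% of them lay above and 17.7% below. Without the third library labelled Mig-6 d/d these counts were 15 and 5 members (36.6% and 12.2%), against 21.1% and 21.2% of the bright genes. The median log2 fold change of the members was 0.30, with 34 of 41 above 0, and that of all genes was -0.03. Without control replicate 3 the members' median was 0.15, and without the third library labelled Mig-6 d/d it was 0.29, with 0 members called.

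Between the double knockout and Mig-6 d/d, 3 members were called lower, Creld2, Dnajc3 and Spcs3, and 0 were called higher, where 3.76% of all genes were called lower and 3.73% higher. At an unadjusted p under 0.05, 10 members lay lower (24.4%) and 2 higher (4.88%), against 11.8% and 14.7% of all genes. The arrays of the 2 genotypes did not overlap in 12 members that were lower in the double knockout (29.3%, against 14.2% of all genes) and in 3 that were higher (7.32%, against 18.6%). Of the 7447 bright genes 422 were called lower and 423 higher, and 18.2% lay lower and 19.8% higher at an unadjusted p under 0.05. Without overlap, 21.8% of the bright genes were lower and 22.7% higher. Without the third library labelled Mig-6 d/d 13 members were lower (31.7%) and 5 higher (12.2%), against 25.4% and 26.0% of the bright genes. The median was -0.16, with 31 of 41 members below 0, and that of all genes was 0.03. Without the third library labelled Mig-6 d/d the median was -0.16 and Spcs3 was called alone.

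Between the double knockout and control, 0 members were called in either direction by limma, where 0.214% of all genes were called higher and 0.198% lower. The methods name an unpaired t-test for 2 groups, but not for the arrays. Without adjustment, this test (the methods' t-test from here on) called Sec23b. In limma only Ssr1 and Sec23b reached an unadjusted p under 0.05, both higher (4.88%). Of all genes 4.25% lay higher and 3.72% lower at that limit, and of the bright genes 4.55% and 4.46%. Ssr1 and Sec23b were also the 2 members whose arrays did not overlap, both higher (4.88%), against 6.52% of all genes higher and 5.32% lower, and against 7.08% and 5.83% of the bright genes. The median was 0.06 for the members and 0.01 for all genes. The 95% interval of the fold change lay within 1.5-fold in 35 of 41 members, and in 79.9% of all genes. The 3 comparisons share arrays, so their values are not independent of one another.

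**Figure D1:**
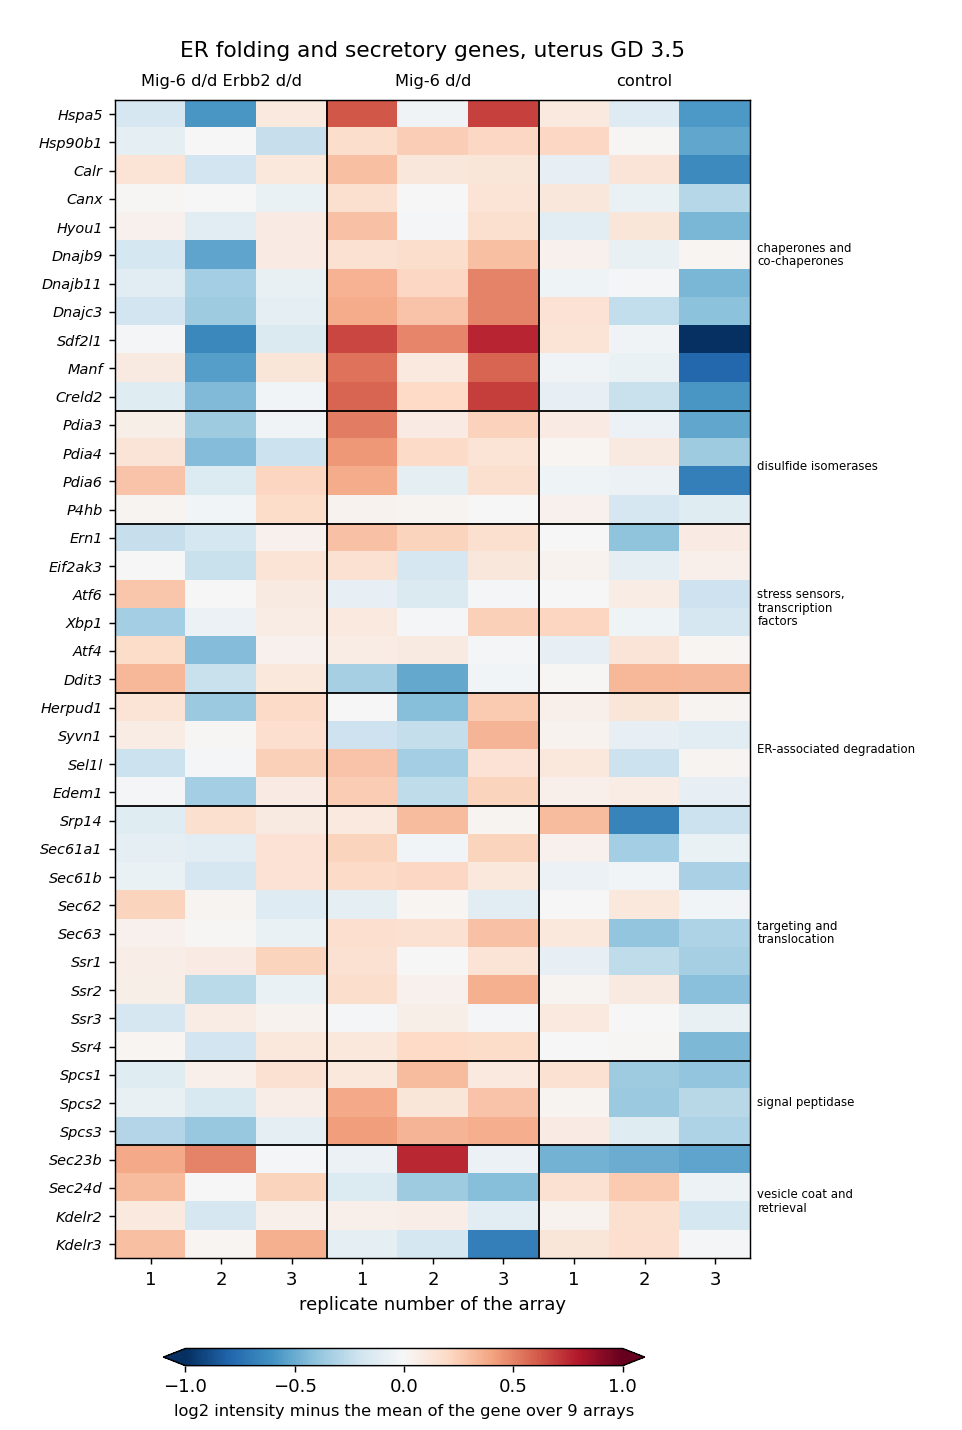
Log2 intensity of each of the 41 measured members on each of the 9 arrays, minus the mean of that gene over the 9 arrays, with genes in rows by role and arrays in columns by group. The chaperone rows are reddest in the Mig-6 d/d columns, and control replicate 3 is the bluest column in that block, with a median of -0.52.

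**Figure D2:**
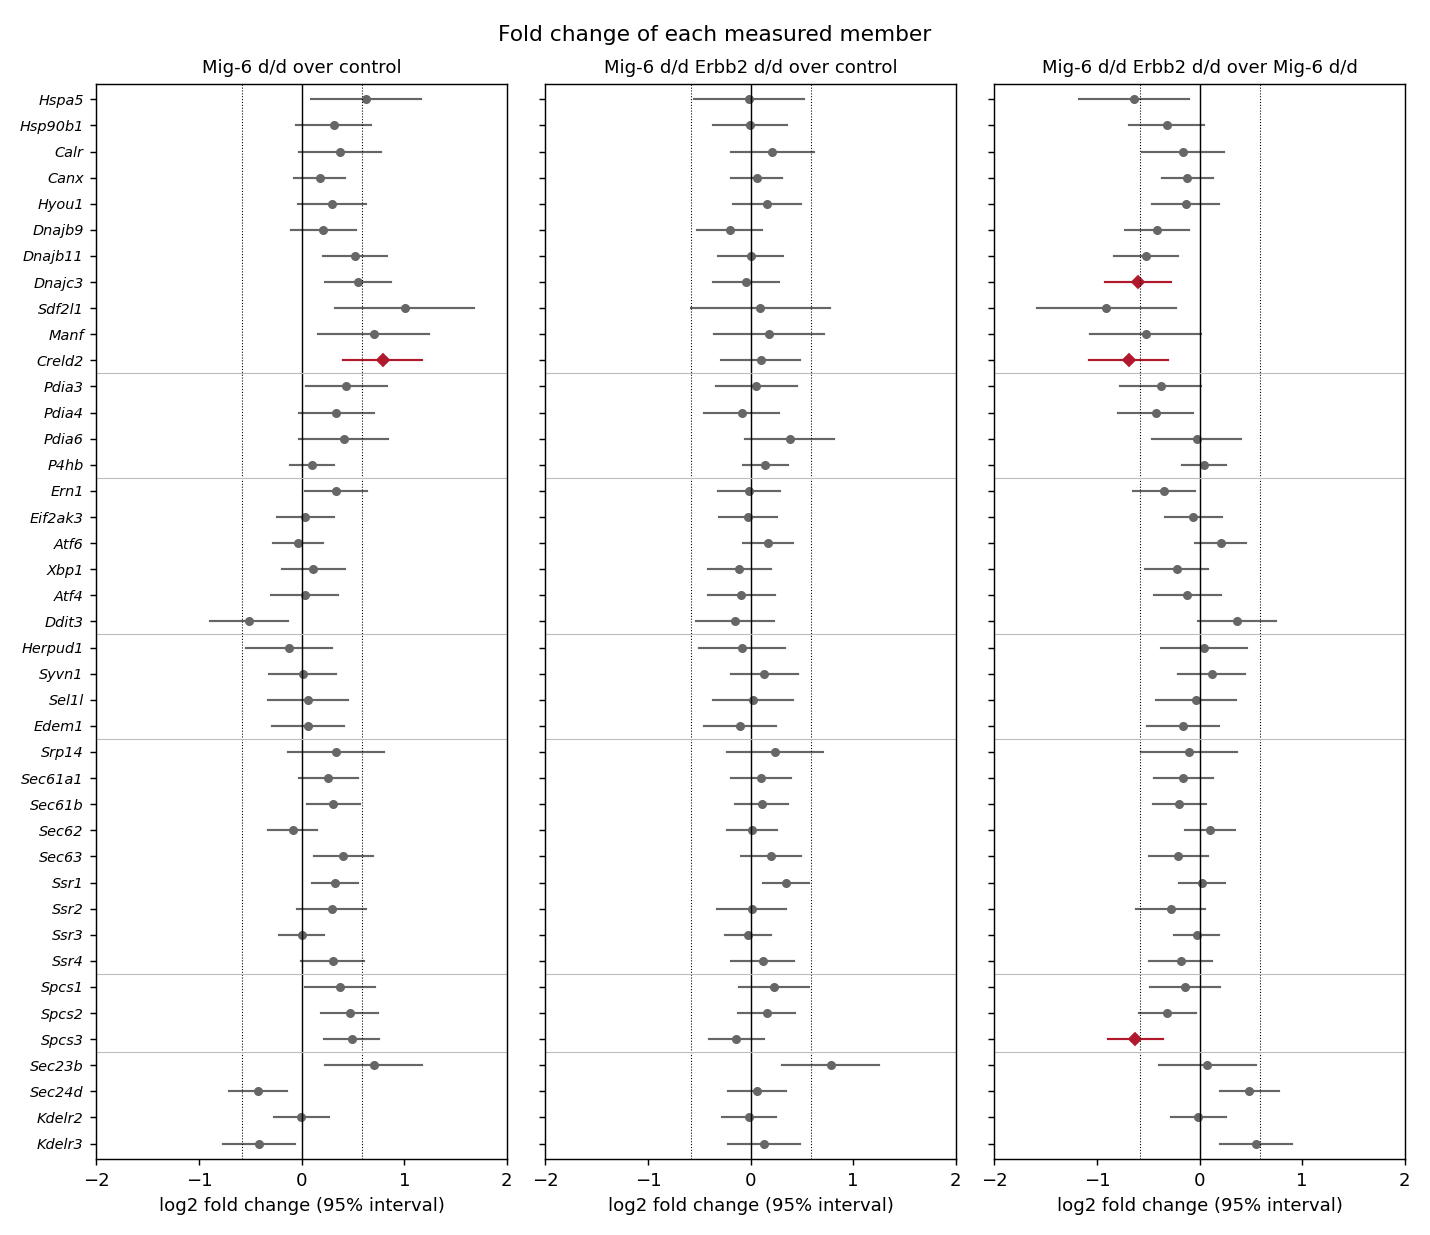
Log2 fold change of each measured member with its 95% interval in the 3 comparisons, from limma, where dotted lines mark 1.5-fold and red diamonds mark called members. Creld2 is called in Mig-6 d/d over control, and Creld2, Dnajc3 and Spcs3 are called in the double knockout over Mig-6 d/d.

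The chaperones and co-chaperones had fold changes of 1 sign in both comparisons that involve Mig-6 d/d. All 11 had a log2 fold change above 0 for Mig-6 d/d against control (0.18 to 1.01, median 0.52), and all 11 lay below 0 for the double knockout relative to Mig-6 d/d (-0.91 to -0.12, median -0.52). For the double knockout against control 6 of 11 lay above 0, with a median of 0.06. The third library labelled Mig-6 d/d was the highest of its group in 7 of 11 chaperones (63.6%, against 31.4% of all genes), and the medians without it were 0.45 for Mig-6 d/d against control (0.16 to 0.95) and -0.44 for the double knockout relative to Mig-6 d/d (-0.85 to -0.10), with all 11 on the same side of 0 as before. Without control replicate 3 the median for Mig-6 d/d against control was 0.38 (0.07 to 0.64, all 11 above 0), and that for the double knockout against control was -0.14, with 1 of 11 above 0. The called ones were Creld2 in both comparisons that involve Mig-6 d/d, and Dnajc3 in 1 of them.

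Creld2, which encodes a secreted and ER-resident protein with EGF-like domains that is induced under ER stress, read 131, 106 and 140.4 in double knockout uteri, 214, 165 and 232 in Mig-6 d/d uteri and 135, 123 and 95.6 in control uteri. All 3 Mig-6 d/d arrays lay above the 6 others, and the double knockout and control arrays overlapped. Its log2 fold change was 0.79 (limma adjusted p = 0.039, SE 0.17) for Mig-6 d/d against control and -0.69 (limma adjusted p = 0.0421, SE 0.17) for the double knockout relative to Mig-6 d/d. Over 21 alternative settings the adjusted p ranged from 0.0258 to 0.34 in the first comparison and from 0.0176 to 0.208 in the second. The first call was lost without control replicate 2 or 3, double knockout replicate 1 or 3, Mig-6 d/d replicate 1 or the third library labelled Mig-6 d/d, and the second without any double knockout array, Mig-6 d/d replicate 1 or the third library labelled Mig-6 d/d. The log2 fold changes with 1 array left out stayed between 0.64 and 0.93 in the first and between -0.83 and -0.57 in the second.

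Dnajc3, whose product P58IPK is a co-chaperone of BiP in the ER lumen, read 189, 168 and 203 in double knockout uteri, 279, 262 and 304 in Mig-6 d/d uteri and 239, 182 and 162 in control uteri. Again no Mig-6 d/d array overlapped with another group. The log2 fold change was -0.60 (limma adjusted p = 0.0368, SE 0.14) for the double knockout relative to Mig-6 d/d, a called fall, which was lost when any 1 of these 6 arrays was left out (-0.66 to -0.53). Against control, Mig-6 d/d gave 0.55 (limma adjusted p = 0.0689, SE 0.14), under the fold limit, and was called without control replicate 1 or with array weights. The other 4 probe sets of Dnajc3 gave 0.47 to 0.84 in that comparison and -0.74 to -0.29 for the double knockout relative to Mig-6 d/d, none of them called.

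Hspa5 encodes BiP, the ER chaperone of the HSP70 family that also holds the stress sensors inactive. It read 1482, 1112 and 1774 in double knockout uteri, 2552, 1622 and 2663 in Mig-6 d/d uteri and 1781, 1516 and 1115 in control uteri. Mig-6 d/d replicate 1 and the third library labelled Mig-6 d/d exceeded all other arrays, whereas Mig-6 d/d replicate 2 lay among the double knockout and control arrays. The log2 fold change was 0.62 (limma adjusted p = 0.197, SE 0.24) for Mig-6 d/d against control, -0.64 (limma adjusted p = 0.16, SE 0.24) for the double knockout relative to Mig-6 d/d and -0.01 (limma adjusted p = 0.997, SE 0.24) for the double knockout against control, and none was called. Without the third library labelled Mig-6 d/d the first 2 were 0.49 and -0.51. The last had a 95% interval of -0.55 to 0.52. Its second probe set gave 0.44 and -0.70 in the first 2 of these comparisons, and the last one, with shared sequence, 0.03 and 0.01.

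Other members of the role were picked out after their values were seen. Sdf2l1, which encodes a component of BiP complexes in the ER lumen, read 142, 92.4 and 130.5 in double knockout uteri, 229, 203 and 245 in Mig-6 d/d uteri and 159, 141 and 62.8 in control uteri. Its Mig-6 d/d arrays lay above all others, and control replicate 3 was the lowest array. With that spread the log2 fold changes of 1.01 (limma adjusted p = 0.104, SE 0.30) against control and -0.91 (limma adjusted p = 0.112, SE 0.30) for the double knockout relative to Mig-6 d/d were not called. Without control replicate 3 the first was 0.59 and the second was called (limma adjusted p = 0.0116), and without the third library labelled Mig-6 d/d they were 0.95 and -0.85.

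Manf, which encodes a small stress-inducible ER protein that can also be secreted, read 541, 347 and 553 in double knockout uteri, 743, 545 and 764 in Mig-6 d/d uteri and 498, 487 and 296 in control uteri. Mig-6 d/d arrays lay above control but overlapped with the double knockout, and the log2 fold change against control was 0.70 (limma adjusted p = 0.15, SE 0.24), which was 0.46 without control replicate 3 and 0.61 without the third library labelled Mig-6 d/d. Dnajb11, which encodes the BiP co-chaperone ERdj3, read 203, 174 and 208 in double knockout uteri, 279, 253 and 309 in Mig-6 d/d uteri and 214, 216 and 159.6 in control uteri. No Mig-6 d/d array of Dnajb11 overlapped with another group, at log2 fold changes of 0.52 (limma adjusted p = 0.0744, SE 0.14) against control and -0.52 (limma adjusted p = 0.0542, SE 0.14) for the double knockout relative to Mig-6 d/d, and of 0.45 and -0.45 without the third library labelled Mig-6 d/d. The remaining chaperones, Hsp90b1, Calr, Canx, Hyou1 and Dnajb9, had log2 fold changes of 0.18 to 0.37 for Mig-6 d/d against control and -0.41 to -0.12 for the double knockout relative to Mig-6 d/d. Without control replicate 3 their range for Mig-6 d/d against control was 0.07 to 0.22.

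**Figure D3:**
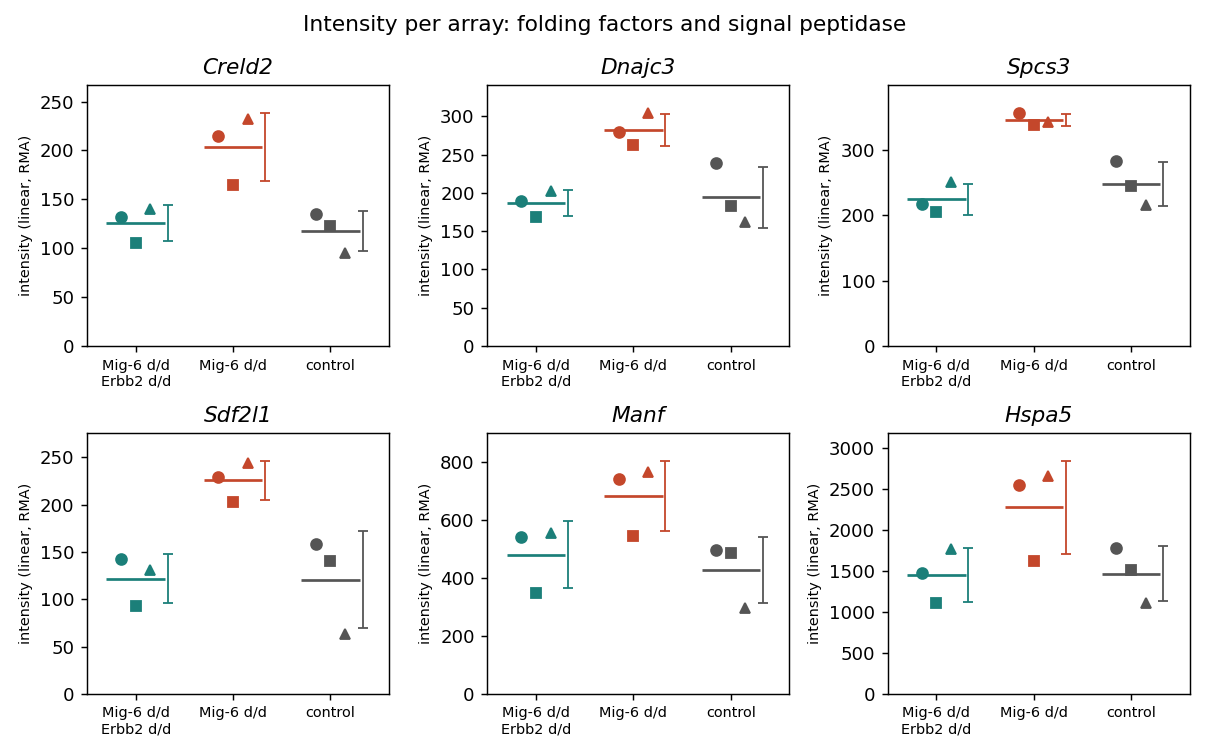
Intensity on each array (circle, square and triangle for replicates 1, 2 and 3) of Creld2, Dnajc3, Spcs3, Sdf2l1, Manf and Hspa5 in the 3 groups, with the mean as a line and the SD as a bar. For Creld2, Dnajc3, Spcs3 and Sdf2l1 the 3 Mig-6 d/d arrays lie above the 6 others, and control replicate 3 is the lowest control array in all 6 genes.

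Promoter sequence was set beside these values, for the 34 of 41 members held in the RefSeq promoter table (GRCm38.p6, 250 bases before to 50 after the start). The ER stress response element, CCAAT, 9 bases of any kind and then CCACG, on either strand, is the site through which ATF6 is known to raise chaperone genes. It occurred in 8 of 34 members (23.5%), Calr, Canx, Creld2, Dnajc3, Hsp90b1, Hspa5, Pdia6 and Syvn1, and in 37 of 27025 genes of the table (0.137%). Members were chosen by role, so this share and those of the other elements below say nothing about the arrays. The 250 bases before the start are shown for the 3 chaperone genes described above that hold the ER stress response element, with the element in capitals. The windows are chr2:34771840-34772089 for Hspa5, chr15:88819396-88819645 for Creld2 and chr14:118937682-118937931 for Dnajc3, each on the plus strand.
Hspa5: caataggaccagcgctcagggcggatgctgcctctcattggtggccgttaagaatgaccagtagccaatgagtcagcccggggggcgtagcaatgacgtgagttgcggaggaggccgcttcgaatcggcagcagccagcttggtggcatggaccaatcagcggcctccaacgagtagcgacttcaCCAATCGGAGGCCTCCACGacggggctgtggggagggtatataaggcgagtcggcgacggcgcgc
Creld2: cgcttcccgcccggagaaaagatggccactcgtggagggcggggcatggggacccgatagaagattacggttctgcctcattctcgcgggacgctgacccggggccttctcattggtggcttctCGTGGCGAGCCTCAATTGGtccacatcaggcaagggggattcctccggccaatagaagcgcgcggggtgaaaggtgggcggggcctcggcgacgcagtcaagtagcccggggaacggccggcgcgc
Dnajc3: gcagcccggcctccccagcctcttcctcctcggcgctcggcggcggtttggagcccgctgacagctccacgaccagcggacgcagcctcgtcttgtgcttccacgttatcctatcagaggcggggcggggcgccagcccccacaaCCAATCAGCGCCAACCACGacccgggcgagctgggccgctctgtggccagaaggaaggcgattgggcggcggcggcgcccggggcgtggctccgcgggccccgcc

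The element began 65 bases before the start in Hspa5, 126 in Creld2, where it reads on the opposite strand, and 105 in Dnajc3. Only exact copies were searched, so imperfect copies, in these genes or in members counted without the element, were not seen. For Mig-6 d/d against control, the 8 members with the element had log2 fold changes of 0.01 to 0.79 (median 0.39), and the 26 members without it in this window -0.51 to 1.01 (median 0.26). For the double knockout relative to Mig-6 d/d the medians were -0.24 with the element and -0.13 without it. Syvn1 held the element and had a log2 fold change of 0.01 for Mig-6 d/d against control, while Sdf2l1 did not hold it in this window and had 1.01 (0.59 without control replicate 3).

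The 4 disulfide isomerases, which form and shuffle disulfide bonds, all lay above 0 for Mig-6 d/d against control (0.10 to 0.44, median 0.37), and 0 were called. Without control replicate 3 their median was 0.20, and without the third library labelled Mig-6 d/d it was 0.40. Pdia4 read 215, 146 and 170.3 in double knockout uteri, 267, 226 and 217 in Mig-6 d/d uteri and 199.5, 209.9 and 154 in control uteri. The Mig-6 d/d arrays lay above the others, with double knockout replicate 1 and control replicate 2 just under the lowest of them. Its log2 fold change was 0.34 (limma adjusted p = 0.325, SE 0.17) for Mig-6 d/d against control and -0.43 (limma adjusted p = 0.173, SE 0.17) for the double knockout relative to Mig-6 d/d, and the first was 0.20 to 0.43 with 1 array left out, lowest without control replicate 3. Pdia6 stood at 0.38 for the double knockout against control, with an interval of -0.05 to 0.82 (0.17 without control replicate 3), and P4hb, the classical isomerase, at 0.10 in Mig-6 d/d and 0.14 for the double knockout, each against control.

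Summed over the 11 chaperones, intensity was 6349.7 to 7509 in double knockout uteri, 8097 to 9693 in Mig-6 d/d uteri and 5266 to 7877 in control uteri, and the Mig-6 d/d arrays overlapped with neither group, with or without the third library labelled Mig-6 d/d (9693). For the 4 isomerases the sums were 2727 to 3271 in double knockout uteri, 3129.8 to 3685 in Mig-6 d/d uteri and 2429 to 3139.6 in control uteri, and the groups overlapped. A sum is dominated by its bright probe sets. In whole tissue, more cells of a type and more RNA per cell cannot be told apart, and the 12 epithelial markers moved with the chaperones. They summed to 2794 to 4047 in double knockout uteri, 8027 to 12424 in Mig-6 d/d uteri and 3062 to 5523 in control uteri. All 12 had a log2 fold change above 0 for Mig-6 d/d against control, 6 of them called higher, and 8 were called lower for the double knockout relative to Mig-6 d/d. The 5 gland markers did not rise together in this way. They summed to 268 to 476 in double knockout uteri, 267 to 638 in Mig-6 d/d uteri and 334 to 834 in control uteri. For Mig-6 d/d against control 4 of these 5 lay below 0 (median -0.17), and for the double knockout relative to Mig-6 d/d also 4, with 0 called in either. Prss29 lay above 0 in the first of these, at 0.24. Spink3 read 75.0, 79.2 and 477 in Mig-6 d/d uteri and 412, 654 and 14.1 in control uteri (log2 fold change -0.14, SE 1.24). Prss28 read 3.73 to 8.39, near or under the array medians. With such spread and dim values, this set cannot tell if gland content changed.

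Among the control arrays, replicate 3 had the highest epithelial sum, 5523, and the lowest chaperone sum, 5266. The 10 stromal markers summed to 26804 to 28403 in double knockout uteri, 19852 to 24123 in Mig-6 d/d uteri and 24001 to 28041 in control uteri. All 10 lay below 0 for Mig-6 d/d against control, 2 of them called lower. The 6 endothelial markers summed to 532 to 696 in double knockout uteri, 349 to 432 in Mig-6 d/d uteri and 613 to 715 in control uteri. Every one of these 6 had all Mig-6 d/d arrays below all control arrays, 2 called lower (Cdh5 and Tek), and 4 were called higher for the double knockout relative to Mig-6 d/d. The 6 smooth muscle markers summed to 15071 to 18509 in double knockout uteri, 8492 to 11735 in Mig-6 d/d uteri and 12392 to 16282 in control uteri, and all 6 lay below 0 for Mig-6 d/d against control with 0 called, while 3 were called higher for the double knockout relative to Mig-6 d/d. The 4 measured plasma cell markers, for another cell rich in ER, summed to 28.0 to 125 in double knockout uteri, 185 to 305 in Mig-6 d/d uteri and 57.9 to 126 in control uteri. Jchain made up most of these sums in the last 2 groups, at 165 to 281 in Mig-6 d/d uteri and 39.7 to 106 in control uteri. Tnfrsf17 and Pou2af1 read under the array medians on all 9 arrays. For Mig-6 d/d against control the median of the 4 was 0.20, with 3 above 0 and 0 called. What part the cell makeup had in the chaperone levels was not tested.

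**Figure D4:**
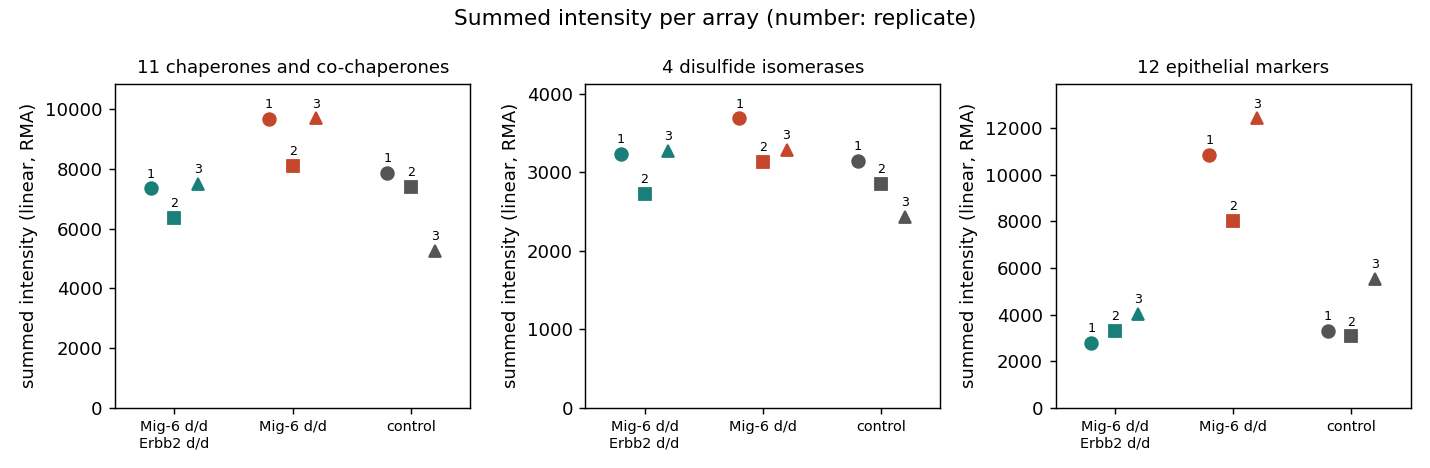
Summed intensity on each array of the 11 chaperones, the 4 disulfide isomerases and the 12 epithelial markers, with the replicate number beside each point. Mig-6 d/d arrays are highest in chaperones (8097 to 9693) and in epithelial markers (8027 to 12424), and control replicate 3 has the lowest chaperone sum and the highest epithelial sum of its group.

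The stress sensors and transcription factors did not move together. Of these 6 members 0 were called in any comparison, and their median was 0.03 for Mig-6 d/d against control, -0.06 for the double knockout against control and -0.09 for the double knockout relative to Mig-6 d/d. Array probes do not tell spliced from unspliced Xbp1, nor do they read the activity of a sensor.

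Xbp1, the factor whose mRNA is spliced by the Ern1 product IRE1, read 1006, 1222 and 1341 in double knockout uteri, 1368, 1268 and 1507 in Mig-6 d/d uteri and 1477, 1236 and 1134 in control uteri. The groups overlapped, and the log2 fold change was 0.11 (limma adjusted p = 0.754, SE 0.14) for Mig-6 d/d and -0.11 (limma adjusted p = 0.925, SE 0.14) for the double knockout, each against control. Atf4, the factor translated when the Eif2ak3 product PERK slows protein synthesis, read 496, 324 and 449.5 in double knockout uteri, 459.8, 465 and 432 in Mig-6 d/d uteri and 412, 477 and 443 in control uteri. Its 95% intervals were -0.30 to 0.36 for Mig-6 d/d and -0.42 to 0.24 for the double knockout, each against control, and double knockout replicate 2 was the lowest array.

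Ddit3, which encodes the pro-apoptotic factor CHOP downstream of ATF4, had a log2 fold change of the opposite sign from the chaperones. It read 56.0, 38.1 and 48.1 in double knockout uteri, 35.3, 31.3 and 43.6 in Mig-6 d/d uteri and 44.9, 56.2 and 55.7 in control uteri. All Mig-6 d/d arrays lay below all control arrays, by little between the third library labelled Mig-6 d/d and control replicate 1. The log2 fold change was -0.51 (limma adjusted p = 0.133, SE 0.17) for Mig-6 d/d against control and 0.36 (limma adjusted p = 0.268, SE 0.17) for the double knockout relative to Mig-6 d/d, neither called. Without the third library labelled Mig-6 d/d they were -0.64 and 0.49. Over 21 alternative settings the first ranged from -0.64 to -0.40 and the second from 0.04 to 0.51. With 1 array left out the second stayed between 0.23 and 0.51, so its lowest value came from another setting. The double knockout against control gave -0.15, and -0.50 to -0.0023 over these settings. Of the sensors, Ern1 had a log2 fold change of 0.33 for Mig-6 d/d against control with no overlap (adjusted p = 0.23, limma, and 0.18 without control replicate 2), Eif2ak3 0.04 and Atf6 -0.03.

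The 4 members of ER-associated degradation recognise misfolded chains and pass them to the cytosol. At their chosen probe sets they lay between -0.13 and 0.06 for Mig-6 d/d against control. There the 95% interval of each stayed within 1.5-fold in all 3 comparisons. Herpud1, a stress-induced membrane protein gene of this machinery, read 151, 106 and 156 in double knockout uteri, 136, 102 and 164 in Mig-6 d/d uteri and 142, 149 and 139.5 in control uteri. Replicate 2 was low in both knockouts, and the groups overlapped. Its log2 fold change was -0.13 (limma adjusted p = 0.807, SE 0.19) for Mig-6 d/d and -0.08 (limma adjusted p = 0.963, SE 0.19) for the double knockout, each against control. Edem1, which encodes a lectin-like protein that marks glycoproteins for degradation, read 177, 141 and 189 in double knockout uteri, 213, 149 and 208 in Mig-6 d/d uteri and 185, 188 and 168 in control uteri. Its groups overlapped too, at log2 fold changes of 0.06 (limma adjusted p = 0.9, SE 0.16) for Mig-6 d/d against control and -0.16 (limma adjusted p = 0.651, SE 0.16) for the double knockout relative to Mig-6 d/d. Over 21 alternative settings the first ranged from -0.03 to 0.36, and from -0.03 to 0.23 with 1 array left out, so its highest value came from another setting. For the double knockout against control, Edem1 gave -0.10 at the chosen probe set and 0.17 with its probe sets averaged. Its result therefore depends on the probe set.

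Herpud1 is shown because its promoter holds the second form of the stress element (ATTGG, 1 base of any kind, CCACG), which occurred in 2 of 34 members (5.88%), the other being Dnajb11, and in 12 of 27025 genes (0.0444%). The element, in capitals within chr8:94386352-94386411 (plus strand), began 52 bases before the start.
Herpud1: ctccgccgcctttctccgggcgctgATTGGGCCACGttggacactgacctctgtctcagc
Dnajb11 lay at 0.52 and Herpud1 at -0.13 on the log2 scale for Mig-6 d/d against control. The C/EBP-ATF element TGATGCAAT, through which ATF4 and C/EBP factors are known to act on Ddit3, was in 0 of the 34 member windows and in 60 of 27025 genes (0.222%). The windows reach only 250 bases before the start, so a site farther upstream, in Ddit3 or another member, would not be found.

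Of the 9 members of targeting and translocation, 8 lay above 0 for Mig-6 d/d against control (-0.09 to 0.41, median 0.30), and 0 were called in any comparison. Their intensities summed to 6442 to 7075 in double knockout uteri, 7182 to 7216 in Mig-6 d/d uteri and 5682 to 6879 in control uteri, and the Mig-6 d/d arrays, which differed little among themselves, lay above the others. Ssr1, which encodes the alpha subunit of the translocon-associated protein complex, read 602, 608 and 670.4 in double knockout uteri, 637, 577 and 632 in Mig-6 d/d uteri and 542, 482 and 455 in control uteri. Here both knockouts lay above all control arrays and overlapped with each other. The log2 fold change was 0.32 (limma adjusted p = 0.116, SE 0.10) for Mig-6 d/d and 0.35 (limma adjusted p = 0.326, SE 0.10) for the double knockout, each against control, and 0.03 (interval -0.20 to 0.25) for the double knockout relative to Mig-6 d/d.

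The probe sets of Ssr1 disagreed, as a dimmer one read 96.3, 93.2 and 109.9 in double knockout uteri, 142, 147 and 183 in Mig-6 d/d uteri and 117, 99.1 and 82.2 in control uteri. At that probe set Mig-6 d/d alone stood apart, called 0.67 higher than control, and the double knockout was called lower than Mig-6 d/d, at -0.65. Sec63, which encodes the membrane J-protein that recruits BiP to the channel, was singled out after its values were seen. Its chosen probe set gave 0.41 (limma adjusted p = 0.122, SE 0.13) for Mig-6 d/d against control, and of its 4 others 2 were called higher, at 0.62 and 0.90, with 0.44 and -0.12 at the rest.

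All 3 signal peptidase subunits lay above 0 for Mig-6 d/d against control (0.37 to 0.49) and below 0 for the double knockout relative to Mig-6 d/d (-0.63 to -0.14). Spcs3, which encodes an accessory subunit, read 218, 205 and 251 in double knockout uteri, 357, 338 and 343 in Mig-6 d/d uteri and 283, 245 and 216 in control uteri. The Mig-6 d/d arrays lay close together and above all others. Spcs3 was called lower in the double knockout than in Mig-6 d/d, with a log2 fold change of -0.63 (limma adjusted p = 0.0149, SE 0.12), and 21 alternatives gave an adjusted p of 0.0069 to 0.106. Without the third library labelled Mig-6 d/d the call of Spcs3 held (log2 fold change -0.63, adjusted p = 0.0475, limma), and it was lost without replicate 1 of Mig-6 d/d or the double knockout's replicate 1 or 2, at -0.71 to -0.57 over all arrays left out. Against control, Mig-6 d/d gave 0.49 (limma adjusted p = 0.0552, SE 0.12), not called. Spcs2, another subunit, read 623, 591 and 687 in double knockout uteri, 851, 714 and 800.1 in Mig-6 d/d uteri and 668, 508 and 539.8 in control uteri, again with Mig-6 d/d above all other arrays, and gave 0.47 (limma adjusted p = 0.0729, SE 0.13) for Mig-6 d/d against control.

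Vesicle coat and retrieval genes differed in direction among themselves. Sec24d, which encodes a cargo-binding subunit of the COPII coat, read 380.0, 305 and 356 in double knockout uteri, 277, 239 and 227 in Mig-6 d/d uteri and 339, 366 and 293 in control uteri. The Mig-6 d/d arrays lay below all others. The log2 fold change was -0.43 (limma adjusted p = 0.102, SE 0.13) for Mig-6 d/d against control and 0.49 (limma adjusted p = 0.05, SE 0.13) for the double knockout relative to Mig-6 d/d, both under the fold limit. Kdelr3, picked out after its values were seen, encodes a receptor that returns escaped ER proteins from the Golgi. It read 283, 232 and 293 in double knockout uteri, 214, 203 and 142 in Mig-6 d/d uteri and 249, 257 and 228 in control uteri. Again the Mig-6 d/d arrays lay below all others, with the third library labelled Mig-6 d/d the lowest, at log2 fold changes of -0.41 (limma adjusted p = 0.193, SE 0.16) against control and 0.55 (limma adjusted p = 0.0694, SE 0.16) for the double knockout relative to Mig-6 d/d. Without that library they were -0.23 and 0.36. Its relative Kdelr2 lay between -0.01 and 0.00 in the 3 comparisons.

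Sec24d and Kdelr3 were also the 2 of 34 members (5.88%) whose promoter window held TGACGTGG, a binding element of XBP1, on either strand, against 193 of 27025 genes (0.714%). The 60 bases before the start are shown with the element in capitals, for Kdelr3 at chr15:79516348-79516407 and for Sec24d at chr3:123267436-123267495 (both plus strand). It began 30 bases before the start in Kdelr3, reading on the opposite strand, and 26 in Sec24d.
Kdelr3: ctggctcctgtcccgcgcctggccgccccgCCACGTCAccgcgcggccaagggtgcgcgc
Sec24d: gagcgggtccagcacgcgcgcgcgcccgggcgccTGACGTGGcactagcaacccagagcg

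Sec23b, which encodes the partner of SEC24 in the inner coat, was singled out after its values were seen as the member with the largest log2 fold change for the double knockout against control. It read 797, 868 and 606 in double knockout uteri, 588, 1033 and 588 in Mig-6 d/d uteri and 443, 436 and 427 in control uteri. Both knockouts lay above all control arrays, and Mig-6 d/d replicate 2 stood far above the other arrays of its group. The log2 fold change was 0.78 (limma adjusted p = 0.277, SE 0.21) for the double knockout and 0.70 (limma adjusted p = 0.104, SE 0.21) for Mig-6 d/d, each against control, and neither was called. Without Mig-6 d/d replicate 2 the second was 0.43.

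**Figure D5:**
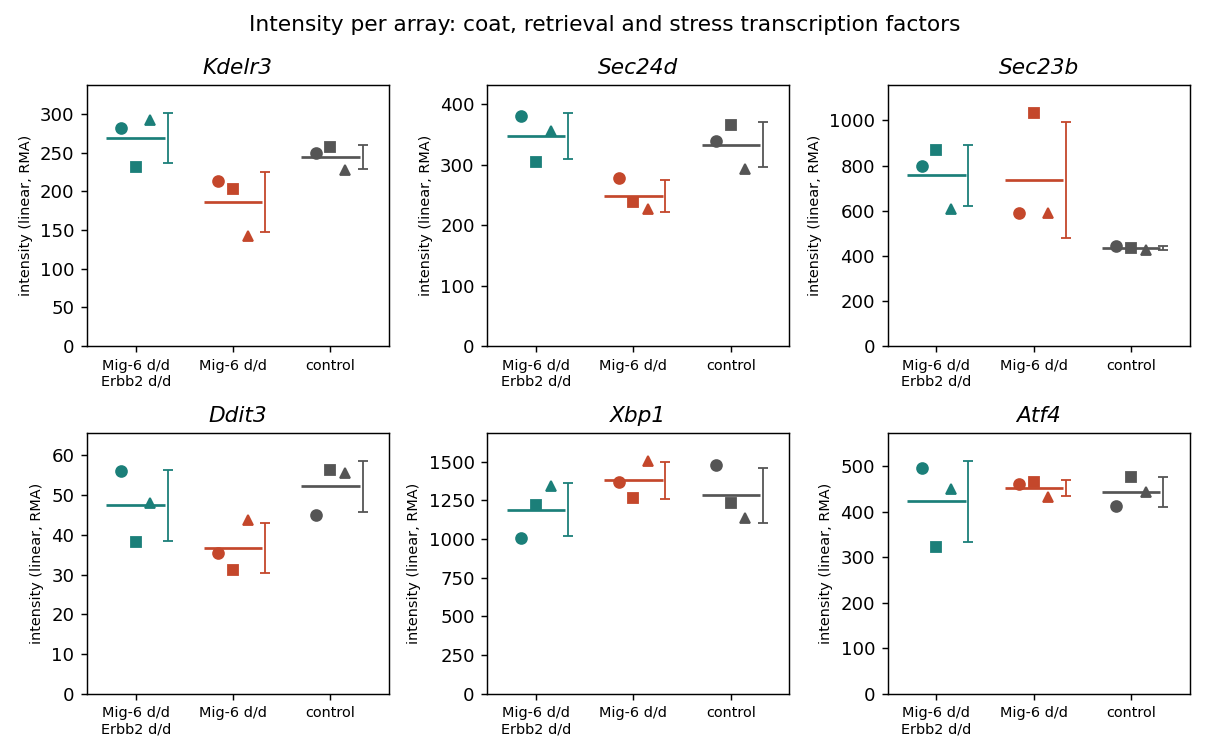
Intensity on each array (circle, square and triangle for replicates 1, 2 and 3) of Kdelr3, Sec24d, Sec23b, Ddit3, Xbp1 and Atf4 in the 3 groups, with the mean as a line and the SD as a bar. The Mig-6 d/d arrays lie below all others in Kdelr3 and Sec24d, both knockouts lie above control in Sec23b, and the groups overlap in Xbp1 and Atf4.

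Single arrays carried part of these differences. Control replicate 3 was the lowest control array in 30 of 41 members (73.2%) and in 10 of 11 chaperones, where it was the lowest in 35.6% of all genes. Double knockout replicate 2 was the lowest of its group in 29 of 41 members (70.7%), against 32.6% of all genes, and Mig-6 d/d replicate 2 in 25 of 41 (61%), against 36.4%. The members' median within-group SD was 0.20 on the log2 scale, against 0.17 in the 7447 genes at least as bright as the dimmest member. Sdf2l1, Manf and Hspa5 had the largest of these SDs among the members, 0.47, 0.36 and 0.36, and P4hb the smallest, 0.09.

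Beyond the members, a list of 96 other genes of folding, glycosylation, degradation, translocation and vesicle transport was read, of which 93 were measured. Between Mig-6 d/d and control 1 of 93 was called higher and 0 lower, at a median of 0.02, where 2.55% and 1.81% of all genes were called. The called one was Sec11c, which encodes a catalytic subunit of signal peptidase. It read 157, 201 and 208 in double knockout uteri, 349, 353 and 477 in Mig-6 d/d uteri and 266, 171 and 178 in control uteri. The Mig-6 d/d arrays lay above all others, at a log2 fold change of 0.95 (limma adjusted p = 0.0316, SE 0.19), and for the double knockout relative to Mig-6 d/d it fell, at -1.06 (limma adjusted p = 0.0128, SE 0.19). The call against control was lost without control replicate 2 or 3, Mig-6 d/d replicate 1 or the third library labelled Mig-6 d/d, and that of the double knockout relative to Mig-6 d/d without double knockout replicate 1. Between the double knockout and control 0 of 93 were called by limma, at a median of 0.04, where 0.214% of all genes were called higher and 0.198% lower. At an unadjusted p under 0.05, 3 lay higher (3.23%) and 4 lower (4.30%), against 4.25% and 3.72% of all genes.

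Between the double knockout and Mig-6 d/d, 3 of 93 were called higher and 1 lower, at a median of -0.03, where 3.73% of all genes were called higher and 3.76% lower. Serpinh1, the collagen chaperone HSP47, read 2557, 2308 and 2559 in double knockout uteri, 1520.2, 1247 and 1221 in Mig-6 d/d uteri and 2002, 2047 and 1442 in control uteri, with a log2 fold change of 0.90 (limma adjusted p = 0.00829, SE 0.15). The double knockout arrays lay above all others. Creb3l1, an ER-bound transcription factor gene that acts on secretory and collagen genes, read 30.0, 26.8 and 34.9 in double knockout uteri, 16.2, 14.8 and 20.6 in Mig-6 d/d uteri and 22.8, 29.3 and 21.7 in control uteri, and gave 0.84 (limma adjusted p = 0.0159, SE 0.16). Preb, which encodes the exchange factor that starts COPII coat assembly, read 376, 349 and 332 in double knockout uteri, 185, 200.5 and 209 in Mig-6 d/d uteri and 247, 424 and 262 in control uteri, and gave 0.83 (limma adjusted p = 0.0242, SE 0.18). In Creb3l1 and Preb the Mig-6 d/d arrays lay below all others. Serpinh1 was called without any 1 of the 9 arrays, Creb3l1 was lost without replicate 1 of Mig-6 d/d or the double knockout's replicate 1 or 3, and Preb without any 1 of these 6 arrays.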

How the data were processed

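The authors made the values with robust multi-array averaging (RMA) and quantile normalization in Bioconductor and deposited them as linear intensities for 45037 probe sets on 9 Affymetrix mouse genome arrays. Signal over background could not be judged without scanner files, which were not used here. Precision is limited by the 3 arrays per group. Log2 values were fitted with limma 3.58.1 under R 4.3.3, using lmFit and eBayes with 3 groups in 1 model, with Benjamini-Hochberg adjustment over all probe sets. The platform annotation gave 34945 probe sets 1 symbol, 932 several and 9160 none. The members and lists were chosen with earlier results of these data known. Text values are given in full for called members, for Hspa5, Xbp1, Atf4, Ddit3 and Herpud1, and for the member with the smallest p of each role without a call. Of 63 cell type markers 60 were measured. The fit was run on simulated data with known changes, in which probe sets varied independently of one another. Shifts of an array that many genes share were not simulated, so this run does not speak to them. As alternatives, dim probe sets were left out, and other choices were made of normalization, variance model, weights, replicate block, arrays left out, thresholds, test (the methods' t-test) and probe set. Values with 1 array left out for overlap counts, role medians and Sdf2l1, Manf, Dnajb11, Kdelr3, Sec23b, Pdia6 and Ern1 were chosen after seeing the data. Plots used matplotlib 3.10.9 in Python 3.11.15.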

Additional observations from a re-analysis of the deposited data

How the results depend on the processing

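The 1 member called higher for Mig-6 d/d against control became 0 with only the 6 arrays compared or with the methods' t-test after Benjamini-Hochberg, and 2 with array weights (Creld2 and Dnajc3). With 1 array left out it was 0 to 4 (4 without control replicate 1: Creld2, Dnajc3, Spcs2 and Spcs3). The median log2 fold change of the members in that comparison was 0.15 to 0.36 with 1 array left out, lowest without control replicate 3. The 3 members called lower for the double knockout relative to Mig-6 d/d became 0 with quantile normalization again and 0 with the methods' t-test after Benjamini-Hochberg, and were 0 to 4 with 1 array left out (0 without replicate 1 of Mig-6 d/d or replicate 1 or 2 of the double knockout, and 4, with Sdf2l1, without control replicate 3). For the double knockout against control the methods' t-test, unadjusted, called 1 member higher. With the replicate number as a block (replicate block), 1 member was called higher for Mig-6 d/d against control and 3 lower for the double knockout relative to Mig-6 d/d, the genes called without it. Same-numbered arrays deviated together at r = -0.13 to 0.20, so the numbers were not taken as pairs.

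Of the pathway list, the 1 gene called higher for Mig-6 d/d against control became 0 with only the 6 arrays compared, with probe sets of a gene averaged or with the methods' t-test after Benjamini-Hochberg, 2 without the fold limit (Derl2 and Sec11c), and 0 to 2 with 1 array left out. The 0 called lower became 1 at an adjusted p under 0.10 (Preb) and 0 to 1 with 1 array left out (Serpinh1, without control replicate 3). For the double knockout relative to Mig-6 d/d, the 3 called higher became 5 without the fold limit, 0 with the methods' t-test after Benjamini-Hochberg and 1 to 3 with 1 array left out, and the 1 called lower became 2 with only the 6 arrays compared (Sec11c and Tmed7), 2 with the methods' t-test unadjusted, 0 after its adjustment, 0 with probe sets of a gene averaged and 0 to 2 with 1 array left out.

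Sign changes occurred in 32 of the combinations of result and setting, all in log2 fold changes that were not called. With 1 array left out, the range for Mig-6 d/d against control was -0.023 to 0.082 for Atf4, -0.030 to 0.23 for Edem1 and -0.28 to 0.060 for Herpud1. For the double knockout against control it was -0.22 to 0.092 for Atf4, -0.044 to 0.22 for Creld2, -0.17 to 0.11 for Dnajc3, -0.19 to 0.023 for Edem1, -0.19 to 0.099 for Herpud1, -0.20 to 0.17 for Hspa5, -0.24 to 0.041 for Pdia4, -0.028 to 0.15 for Sec24d and -0.20 to 0.0066 for Xbp1. For the double knockout relative to Mig-6 d/d it was -0.25 to 0.063 for Atf4, -0.14 to 0.22 for Herpud1 and -0.023 to 0.055 for Ssr1. Other settings gave -0.012 for Atf4 with quantile normalization again and -0.0070 for Xbp1 with probe sets of a gene averaged for Mig-6 d/d against control. They gave 0.10 for Dnajc3 and 0.17 for Edem1 with the mean over probe sets, and 0.020 for Hspa5 with array weights, for the double knockout against control. They gave -0.044 with array weights and -0.033 with the mean over probe sets for Herpud1, and -0.0019 with arrays centred on their median and -0.052 with the mean over probe sets for Ssr1, for the double knockout relative to Mig-6 d/d. The causes were not tested.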

Other observations

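Of the further genes of the pathway, the 12 of N-glycosylation and glucosidases had a median log2 fold change of 0.11 for Mig-6 d/d against control, with 10 of 12 above 0, and -0.08 for the double knockout relative to Mig-6 d/d, with 3 of 12 above 0, and 0 were called. The 11 of oxidative folding, which renews disulfide donors, had medians of 0.09 and -0.12 in these comparisons, and 0 were called. The 11 other folding factors, which include the collagen chaperone gene Serpinh1, had medians of the opposite sign, -0.20 and 0.22. The 11 other degradation genes had medians of -0.01 and -0.03, and the 25 other vesicle coat and cargo genes -0.04 and -0.02, with Preb the 1 called of these 25.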
